A study of Homo sapiens with 18 samples.

Results

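Transcriptional readthrough is described here for 6 genes of ribosome production or of small nucleolar RNA (snoRNA) hosting, namely ACADM, TAF1D, WDR43, NCL, NOP56 and NOP58. They were chosen by name, with earlier results of these data known. All 6 were found among the 13051 transcripts of the readthrough table, of which 12704 were matched by identifier to GENCODE 44. For ACADM, TAF1D and WDR43 the choice also fixed the transcript. RABGGTB is described beside ACADM because the counted end of ACADM lies inside it.

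Nucleoli make ribosomal RNA with RNA polymerase I and assemble it with proteins into ribosomal subunits. The snoRNAs guide chemical modification and folding of that RNA: box C/D snoRNAs guide methylation of the ribose, and box H/ACA snoRNAs guide pseudouridylation. In human cells most snoRNAs are cut out of introns of host genes that RNA polymerase II transcribes, and many hosts encode ribosomal or nucleolar proteins.

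The cells were K562, a line from chronic myeloid leukaemia whose growth depends on the BCR-ABL1 kinase. Chromatin RNA, depleted of polyadenylated and ribosomal RNA, was sequenced in long PacBio reads, each of whose 3′ ends gives the position of a polymerase or of a cleaved RNA. A readthrough read overlaps the last exon of the gene's most distal transcript, and its 3′ end lies more than 100 nt past that exon. A read that overlaps several genes is given to the gene it covers most. A change in these counts mixes transcription with cleavage. The study asks how drugs and stress change readthrough and splicing.

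There were 6 groups of 3 biological replicates. CTRL and CTRLim were both untreated. IM 1h and IM 18h received imatinib, which inhibits BCR-ABL1, at 1 µM for 1 h or 18 h. JTE 1h received JTE-607, an inhibitor of the CPSF73 endonuclease that cleaves pre-mRNA at its 3′ end, at 5 µM for 1 h. KCl 45min was given hyperosmotic stress with 110 mM KCl for 45 min. All treatments ended together, in parallel with the untreated cells.

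Mapping separates the libraries into 2 sets, since the mapped share of raw reads was 40.5% to 44.1% in CTRL, KCl 45min and JTE 1h and 84.3% to 91.6% in CTRLim, IM 1h and IM 18h. Any comparison across the sets therefore cannot be told apart from the set. Library sizes, which are reads left after the study's filters, ran from 229855 in CTRLim replicate 1 to 1349556 in IM 18h replicate 3. Readthrough reads ran from 8422 in KCl 45min replicate 2 to 57982 in JTE 1h replicate 3. JTE 1h replicate 1 stood apart from its group, with 3.06% of library reads in readthrough, while replicates 2 and 3 had 5.40% and 5.05%. Values below are readthrough reads per 1000000 library reads (RPM), given as mean ± SD with n = 3. One read was worth between 0.741 and 4.35 RPM.

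The label of the cells was checked against marker genes. Of 12 erythroid markers, 11 were in the table, with 7796 readthrough reads over the 18 libraries, most of them on the fetal and embryonic globin genes HBG1 (4159 reads) and HBE1 (2768 reads), while HBZ had 1. The table held 2 of 5 T cell markers, with 14 reads in all, 2 of 3 B cell markers with 2 and 2 of 3 fibroblast markers with 1. All 4 epithelial markers were there, with 119 reads, 91 of them on KRT18.

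ACADM encodes a mitochondrial dehydrogenase of fatty acid oxidation, but the transcript counted under its name runs far past the gene's usual end. In GRCh38 it spans chr1:75749497-75787575, plus strand, and its end lies 23896 nt downstream of the end of the canonical transcript. Its last exon, exon 5, is 79 nt long, starts at the same base as exon 2 of RABGGTB and lies within that 108 nt exon. RABGGTB encodes the beta subunit of Rab geranylgeranyl transferase, which attaches lipid to Rab proteins, and is a host of SNORD45C, SNORD45A and SNORD45B in its introns 1, 2 and 3. Readthrough reads of ACADM are counted from a position inside RABGGTB intron 2. A read of RABGGTB pre-mRNA that stops between there and the end of that gene can therefore be counted under ACADM. For this it must overlap the 79 nt exon and be given to ACADM, whereas the count of RABGGTB itself begins 7511 nt further downstream. SNORD45A lies 214 to 297 nt past the ACADM position, SNORD45B lies 1802 to 1873 nt past it, and SNORD45C lies upstream. MSH4 follows RABGGTB on the same strand after 1796 nt. Because the ACADM count starts in front of SNORD45A and SNORD45B, the sequences of the 3 snoRNAs are shown, read from GENCODE 44 transcripts on the plus strand of GRCh38 at chr1:75787072-75787150, chr1:75787889-75787972 and chr1:75789477-75789548. Capitals mark the core of box C, TGATG within the first 20 bases, and box D, CTGA within the last 20.
SNORD45C: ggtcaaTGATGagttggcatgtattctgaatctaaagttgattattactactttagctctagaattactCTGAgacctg
SNORD45A: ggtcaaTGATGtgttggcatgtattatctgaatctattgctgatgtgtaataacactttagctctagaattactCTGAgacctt
SNORD45B: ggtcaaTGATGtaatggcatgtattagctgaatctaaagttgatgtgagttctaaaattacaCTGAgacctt
Both letter groups were present in 238 of the 313 annotated box C/D snoRNAs (76.0%).

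**Figure D1:**
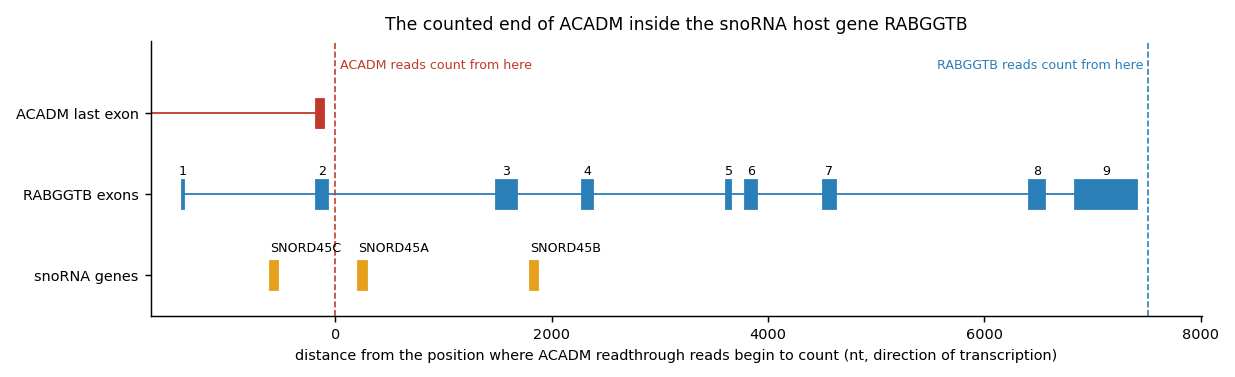
The counted end of ACADM, the 9 exons of RABGGTB and the 3 snoRNA genes, drawn by distance in nt from the position where ACADM readthrough reads begin to count (red dashed line), in the direction of transcription. The blue dashed line, 7511 nt further, is where RABGGTB readthrough reads begin to count, so that SNORD45A, SNORD45B and most RABGGTB exons lie between the lines.

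The map of the region shows that 2 of the 3 snoRNA genes lie inside the stretch where a 3′ end can count for ACADM and not for RABGGTB. No read positions were used here, so the number of ACADM reads that end at or within a snoRNA was not determined.

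All 6 genes are among the 148 matched transcripts that are snoRNA hosts by annotation. ACADM is among them only through SNORD45C, which is also assigned to RABGGTB and lies past the end of the canonical ACADM transcript. TAF1D, a subunit of the factor SL1 that brings polymerase I to ribosomal DNA, hosts 8 snoRNAs, the most of any transcript in the table: SNORA25, SNORA32, SNORD6, SNORA1, SNORA8, SNORD5, SNORA18 and SNORA40. The counted TAF1D transcript (chr11:93729948-93741494, minus strand) ends 5619 nt past the canonical one, overlaps the convergent gene CEP295, and holds SNORA25 and SNORA32 inside its last exon of 1269 nt. WDR43, a protein of the small subunit processome (chr2:28894667-28948219, plus strand), hosts SNORD92, SNORD53 and SNORD53B, and the next gene on its strand, TOGARAM2, starts 8392 nt beyond its end. NCL, nucleolin (chr2:231453531-231464484, minus strand), hosts SNORA75, SNORD20 and SNORD82. NOP56 (chr20:2656111-2658393, plus strand) and NOP58 (chr2:202265763-202303661, plus strand) encode core proteins of box C/D snoRNPs. The 2 genes host 5 and 4 snoRNAs, and NOP56 ends 2 nt from the convergent gene IDH3B. The span given for NOP56 is that of the counted transcript, which is not the canonical one but ends at the same base. SNORD110 and SNORA51 lie upstream of this span, and SNORD86 begins upstream of it. SNORA32, which lies inside the counted last exon of TAF1D, is shown at chr11:93730979-93731099, minus strand, with its ACA box in capitals, while SNORA25 in the same exon has no ACA within its last 6 bases. The letters ACA within the last 6 bases were found in 142 of 214 annotated box H/ACA snoRNAs (66.4%).
SNORA32: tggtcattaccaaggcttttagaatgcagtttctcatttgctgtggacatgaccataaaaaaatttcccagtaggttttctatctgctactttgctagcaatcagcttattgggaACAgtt

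The ends of the counted transcripts differ in the letters of the poly(A) signal. AATAAA or ATTAAA occurs within the last 50 bases of WDR43, NCL, NOP56, NOP58 and RABGGTB but not of ACADM or TAF1D, and does so in 74.4% of the 12704 matched transcripts. The stretches of 30 bases below end within 5 bases of each annotated end, with the hexamer in capitals, and were read from GENCODE 44 transcripts.
ACADM: tgttattggagaaacatgcagattatatcg
TAF1D: aaccctaccttagacccctttggtgcctta
RABGGTB: gcacaaAATAAAtggctgttgaaatttgga
WDR43: gtaaagtgAATAAAtattcatctttaccca
NCL: taaggaATTAAAagctcagttaattgaagc
NOP56: gtgttccccAATAAAaacaaattcacaaga
NOP58: tatacaAATAAAattttctttgtattttaa
A missing hexamer says only that these letters are not in that window.

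The number of readthrough reads differed widely among the 6 genes. ACADM had 3210 reads in all, which placed it 4th of all transcripts in the table and 1st among the host transcripts. TAF1D had 759 reads and was 44th in the table and 7th among hosts. NOP56 had 127 reads, NCL 122, WDR43 116 and NOP58 103, against a median of 43 over the 148 hosts and of 10 over all transcripts. RABGGTB had 219 reads.

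ACADM read 513, 433 and 408 RPM in CTRLim, 416, 450.1 and 405 in IM 1h and 220.2, 201 and 203 in IM 18h. In the other set it read 177, 353 and 213 in CTRL, 317, 331 and 134 in KCl 45min and 200.2, 313 and 143 in JTE 1h. Every IM 18h library lay below every CTRLim and IM 1h library, whereas CTRL, KCl 45min and JTE 1h overlapped. By group means the order was CTRLim (452 ± 54.9), IM 1h (424 ± 23.6), KCl 45min (261 ± 110.2), CTRL (248 ± 93.0), JTE 1h (219 ± 86.6) and IM 18h (208 ± 10.5), and of neighbours in that order only IM 1h and KCl 45min did not overlap. This order, like those of the other genes below, crosses the 2 library sets and so is not an order of treatments. RABGGTB, counted at its own end, read 30.5, 13.0 and 22.3 in CTRLim, 29.7, 36.6 and 23.7 in IM 1h and 12.8, 14.9 and 18.5 in IM 18h. It read 5.54, 7.31 and 38.7 in CTRL, 2.44, 3.19 and 1.89 in KCl 45min and 10.9, 33.1 and 32.2 in JTE 1h. KCl 45min held 1, 1 and 2 reads there, fewer than any other group, and 1 CTRL library of 10 reads carried most of the CTRL mean.

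Among reads counted for either gene, RABGGTB took 5.38% in CTRL (15 of 279, 95% Wilson interval 3.28% to 8.68%) and 1.06% in KCl 45min (4 of 379, 0.411% to 2.68%). The single CTRL libraries gave 3.03%, 2.03% and 15.4%, so that the share was 2.34% (5 of 214) without replicate 3 and 9.16% (12 of 131) without replicate 2. In JTE 1h it took 12.4% (59 of 476, 9.73% to 15.7%), the single libraries gave 5.15%, 9.55% and 18.4%, and without replicate 3 the share was 8.0% (22 of 275). CTRLim gave 4.33%, IM 1h 6.501% and IM 18h 7.05%. These intervals, like all counting intervals here, cover counting error only, and the spread of the CTRL and JTE 1h libraries was wider than that.

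TAF1D read 95.7, 143 and 118 RPM in CTRLim, 101, 105 and 111 in IM 1h and 77.7, 61.8 and 65.2 in IM 18h. It read 19.4, 36.5 and 42.5 in CTRL, 4.87, 25.5 and 14.2 in KCl 45min and 13.1, 72.0 and 38.3 in JTE 1h. Its 3 IM 18h libraries lay below those of CTRLim and IM 1h, and CTRLim lay above CTRL in all pairs of libraries although both were untreated. By means the order was CTRLim, IM 1h, IM 18h, JTE 1h, CTRL and KCl 45min, and of the neighbours only IM 1h and IM 18h did not overlap. WDR43 read 8.70, 16.7 and 12.2 RPM in CTRLim, 23.8, 19.2 and 14.9 in IM 1h and 2.13, 4.70 and 3.70 in IM 18h. In CTRL it read 0, 9.75 and 19.3, in KCl 45min 0, 6.37 and 3.79 and in JTE 1h 0, 9.72 and 23.5. The replicate 1 libraries of CTRL, KCl 45min and JTE 1h held no WDR43 read, and IM 18h lay below both other imatinib set groups without overlap. IM 1h led by mean, ahead of CTRLim, JTE 1h, CTRL, IM 18h and KCl 45min, and each of these overlapped its neighbour.

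NCL read 36.04, 24.4 and 11.6 RPM in CTRL, 4.87, 0 and 2.84 in KCl 45min and 8.70, 31.1 and 11.3 in JTE 1h. In the imatinib set it read 17.4, 11.1 and 6.09 in CTRLim, 11.9, 12.2 and 14.9 in IM 1h and 5.32, 9.39 and 0.741 in IM 18h. The KCl 45min libraries held 2, 0 and 3 reads and lay below every CTRL library in RPM, and 1 of the IM 18h libraries held a single read. CTRL led by mean, then JTE 1h, IM 1h, CTRLim, IM 18h and KCl 45min, and each neighbouring pair overlapped. NOP56 read 32.6, 33.1 and 36.6 RPM in JTE 1h against 13.9, 7.31 and 3.87 in CTRL and 9.74, 0 and 2.84 in KCl 45min. It read 0, 9.26 and 6.09 in CTRLim, 7.43, 5.23 and 8.72 in IM 1h and 4.26, 6.26 and 1.48 in IM 18h. JTE 1h stood above all 15 other libraries, with 15, 17 and 42 reads, and the other 5 groups overlapped from CTRL through IM 1h, CTRLim and KCl 45min to IM 18h. NOP58 read 8.70, 1.85 and 6.09 in CTRLim, 13.4, 17.4 and 18.7 in IM 1h and 5.32, 7.83 and 8.89 in IM 18h. It read 11.1, 7.31 and 7.73 in CTRL, 2.44, 6.37 and 3.79 in KCl 45min and 4.35, 17.5 and 7.84 in JTE 1h. Its IM 1h libraries were above all of CTRLim and IM 18h, and the CTRLim libraries held only 2, 1 and 3 reads. Its order by mean was IM 1h, JTE 1h, CTRL, IM 18h, CTRLim and KCl 45min, and each neighbouring pair overlapped.

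**Figure D2:**
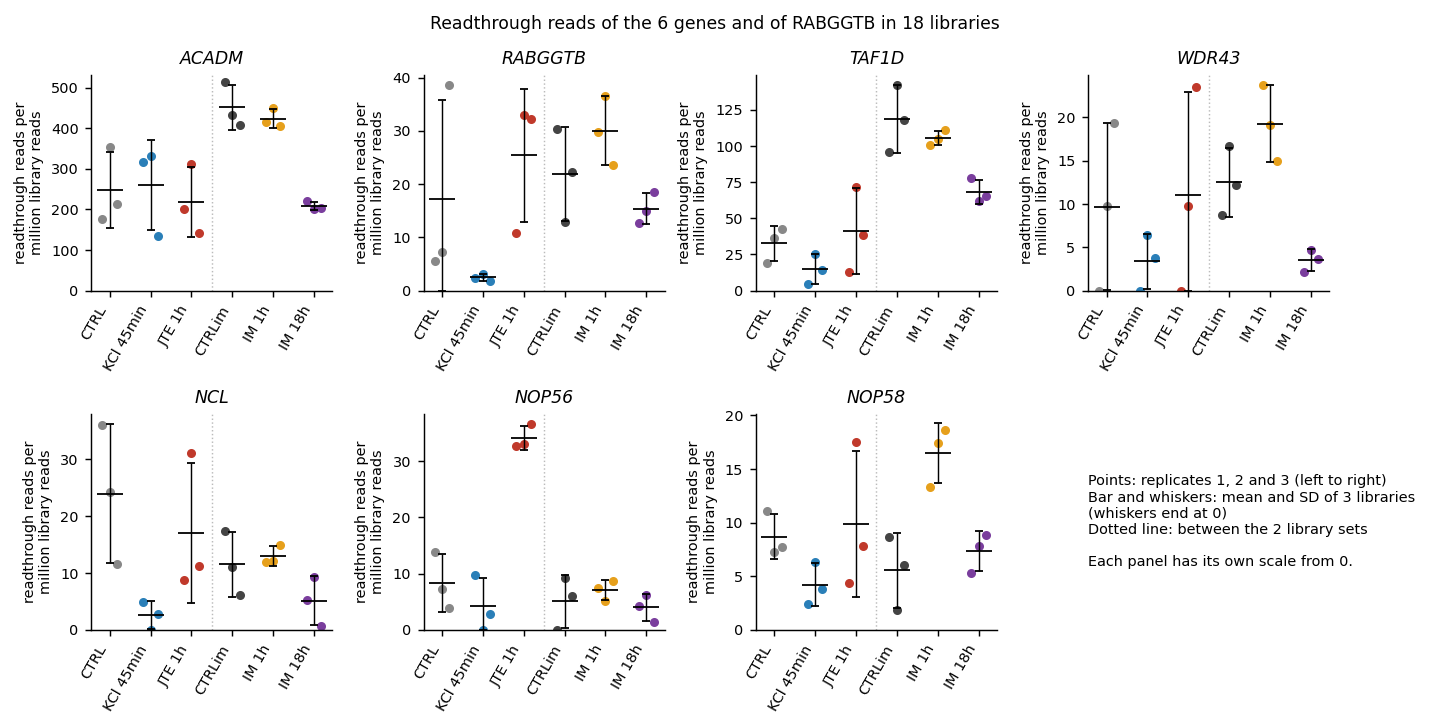
Readthrough reads per 1000000 library reads (vertical axes, each from 0) of the 6 genes and RABGGTB in the 18 libraries by group, with points for replicates and a bar with whiskers for mean and SD. NOP56 is highest in the 3 JTE 1h libraries, and ACADM, TAF1D and WDR43 are lower in IM 18h than in CTRLim and IM 1h in each of the 3 libraries.

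The plot of the libraries shows that single genes differ in which condition stands out, and that the spread of replicates in CTRL, KCl 45min and JTE 1h is often as large as the differences between these groups.

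Imatinib for 1 h was compared with CTRLim to ask for an early change. None of the 6 genes was called, meaning an adjusted p under 0.05 by the quasi-likelihood test of edgeR with Benjamini-Hochberg adjustment. The test took transcripts with at least 30 reads over the 6 libraries, which 5 of the 6 genes reached (NOP56 had 23). Of all 988 transcripts tested, 15 (1.52%) were called, 13 lower and 2 higher (17 and 0 with TMM scaling), 131 had an unadjusted p under 0.05, and DESeq2 called 8. Among the 5, NOP58 had the largest difference, at 1.75 (SE 0.580, adjusted p = 0.128) on the log2 scale, with all 3 IM 1h libraries higher. Since CTRLim held few reads, the ratio of pooled reads was 3.49 with an exact 95% counting interval of 1.45 to 10.2. ACADM gave -0.08, TAF1D -0.22, WDR43 0.50 and NCL 0.34, each with overlapping groups. The median of all tested transcripts was 0.19, and 0.00 after TMM scaling of the counts, and relative to it NOP58 lay at 1.56. Leaving out CTRLim replicate 2 or 3 lowered the count of all called transcripts to 8, leaving out IM 1h replicate 1 lowered it to 9, and summing the 3 IM 1h libraries as 1 lowered it to 6.

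After 18 h of imatinib, ACADM, TAF1D and WDR43 were lower than in CTRLim. ACADM fell from 452 ± 54.9 to 208 ± 10.5 RPM, TAF1D from 119 ± 23.4 to 68.2 ± 8.33 and WDR43 from 12.5 ± 3.99 to 3.51 ± 1.30. The log2 fold changes were -1.11 (SE 0.203, adjusted p = 8.84e-05) for ACADM, -0.84 (SE 0.235, adjusted p = 0.0107) for TAF1D and -1.84 (SE 0.561, adjusted p = 0.0196) for WDR43, by the quasi-likelihood test of edgeR with Benjamini-Hochberg adjustment. In each case all 3 IM 18h libraries lay below all 3 CTRLim libraries. Readthrough reads of all transcripts separated in the same way, at 3.68% to 3.74% of library reads in IM 18h and 3.79% to 4.44% in CTRLim. The 5 of 6 genes with at least 30 reads gave 3 calls, all lower, while 196 of 1386 transcripts were called (14.1%) and 124 were called lower (8.95%). NCL gave -1.02 (SE 0.624, adjusted p = 0.300) and NOP58 0.64 (SE 0.651, adjusted p = 0.572) with overlapping groups, and NOP56 was not tested. For RABGGTB the change was -0.36 (SE 0.398, adjusted p = 0.598), and whether it differs from that of ACADM was not tested. The median of all transcripts tested was -0.01, and 0.10 after TMM scaling. ACADM lay at -1.10 relative to the median, TAF1D at -0.83 and WDR43 at -1.82.

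That comparison rests in part on single libraries. WDR43 had exactly 30 reads, so that leaving out any 1 of the 6 libraries took it under the minimum. Without CTRLim replicate 2 TAF1D was at -0.68 (adjusted p = 0.132), ACADM was the 1 gene called, and 116 transcripts were called in all. Without CTRLim replicate 3 that count was 120. The 2 untreated groups also differ as controls: against CTRL, which is in the other library set, TAF1D was higher in IM 18h, at 1.07 (adjusted p = 0.0269), NCL was lower, at -2.27 (adjusted p = 0.00774), and ACADM was at -0.26 without a call. Against all 6 untreated libraries NCL was the 1 gene called, at -1.73 (adjusted p = 0.0481). With CTRLim replicates 2 and 3 summed as 1 library, TAF1D was at -0.79 (adjusted p = 0.0502) and ACADM and WDR43 were called. DESeq2 and the fit of all 18 libraries each called ACADM alone, with TAF1D at -0.66 and -0.82 and WDR43 at -1.71 and -1.82.

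The imatinib times were compared directly, within 1 library set and drug. Between IM 1h and IM 18h, ACADM fell from 424 ± 23.6 to 208 ± 10.5 RPM, TAF1D from 106 ± 4.97 to 68.2 ± 8.33 and WDR43 from 19.3 ± 4.41 to 3.51 ± 1.30. NCL fell from 13.0 ± 1.68 to 5.15 ± 4.33, NOP58 from 16.5 ± 2.78 to 7.35 ± 1.83 and RABGGTB from 30.01 ± 6.49 to 15.4 ± 2.91. For each of these genes all 3 IM 18h libraries were below all 3 IM 1h libraries. Readthrough reads of all transcripts separated in the same way, at 3.68% to 3.74% of library reads in IM 18h and 4.37% to 4.40% in IM 1h. By the quasi-likelihood test of edgeR with Benjamini-Hochberg adjustment the log2 fold change was -1.03 (SE 0.109, adjusted p = 9.22e-14) for ACADM and -0.64 (SE 0.168, adjusted p = 0.00318) for TAF1D. It was -2.35 (SE 0.448, adjusted p = 2.90e-05) for WDR43, -1.36 (SE 0.474, adjusted p = 0.0319) for NCL and -1.12 (SE 0.400, adjusted p = 0.0359) for NOP58. RABGGTB gave -0.91 (SE 0.317, adjusted p = 0.0310). All 5 genes that were tested were called lower, against 315 of 1720 transcripts called (18.3%), 243 lower (14.1%) and 72 higher, or 92 lower and 111 higher with TMM scaling. NOP56, with 29 reads, was not tested and read 7.13 ± 1.76 and 4.0 ± 2.40 RPM.

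Most transcripts were lower at 18 h, with a median of -0.30 over all tested, which TMM scaling moved to -0.01. Relative to that median, WDR43 lay at -2.05, NCL at -1.06, NOP58 at -0.82, ACADM at -0.73, RABGGTB at -0.61 and TAF1D at -0.34. With TMM scaling ACADM and WDR43 were called, and TAF1D (-0.34), NCL (-1.07), NOP58 (-0.83) and RABGGTB (-0.62) were lower without a call. DESeq2 called ACADM (-0.72) and WDR43 (-2.11), and the fit of all 18 libraries called WDR43 alone (-2.34), with ACADM at -1.02 (adjusted p = 0.0800).

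The 3 IM 1h libraries differed from each other by no more than sampling noise (chi-square per degree of freedom 0.977 to 1.06), and whether they are separate cultures was not determined here. If they are not, the standard errors and p values of this comparison leave out the variation between IM 1h cultures. With the 3 summed as 1 library, which is then assumed to vary like those of IM 18h, ACADM at -1.02 (adjusted p = 1.90e-05) and WDR43 at -2.36 (adjusted p = 8.55e-04) were called. TAF1D at -0.64 (adjusted p = 0.0843), NCL at -1.36 (adjusted p = 0.112), NOP58 at -1.13 (adjusted p = 0.0918) and RABGGTB at -0.91 (adjusted p = 0.140) were not, and 155 transcripts were called in all.

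The calls of ACADM, TAF1D and WDR43 did not change when any 1 of the 6 libraries was left out, but the others did. NCL was not called without IM 1h replicate 1 (-1.42), 2 (-1.40) or 3 (-1.23) or IM 18h replicate 3 (-0.77), and moved to -2.25 without IM 18h replicate 2. NOP58 was not called without IM 1h replicate 2 (-1.09) or 3 (-1.01) or IM 18h replicate 1 (-0.97) or 2 (-1.15). RABGGTB was not called without IM 1h replicate 1 (-0.91) or 2 (-0.76) or IM 18h replicate 1 (-0.81) or 2 (-0.88). The count of all called transcripts was 183 without IM 1h replicate 2 and 174 without IM 1h replicate 3.

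JTE-607 was compared with CTRL to ask which ends respond to loss of CPSF73 activity. None of the 6 genes was called by the quasi-likelihood test of edgeR with Benjamini-Hochberg adjustment, for 5 of 6 tested, and 1 of 969 transcripts was called in all (0.103%). At an unadjusted p under 0.05 there were 108 transcripts, and DESeq2 called 1. NOP56 read 34.1 ± 2.17 RPM after JTE-607 and 8.35 ± 5.08 in CTRL, and all 3 JTE 1h libraries were above all 3 CTRL libraries. Its log2 fold change was 1.96 (SE 0.653, adjusted p = 0.226), with a ratio of pooled reads of 3.99 (exact 95% counting interval 1.99 to 9.07). An exact two-sided permutation test of the 6 libraries gave p = 0.1, the smallest that 3 against 3 allows. ACADM gave -0.19, TAF1D 0.34, WDR43 0.46, NCL -0.55 and RABGGTB 0.71, each with overlapping groups, and NOP58 had 29 reads. Without CTRL replicate 3 RABGGTB was at 1.97 (adjusted p = 0.364). The median over all transcripts was 0.49, and 0.04 after TMM scaling, and NOP56 lay at 1.47 relative to it. NOP56 was called without JTE 1h replicate 1, at 1.98 (adjusted p = 0.0373), where 69 transcripts were called in all, whereas 0 were called when any other of the 6 libraries was left out. NOP56 was also called in the fit of all 18 libraries, at 1.96 (adjusted p = 0.0425), and against all 6 untreated libraries, at 2.20 (adjusted p = 0.0371).

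KCl was compared with CTRL as hyperosmotic stress. NCL fell from 24.0 ± 12.2 to 2.57 ± 2.45 RPM, with all 3 KCl 45min libraries below all 3 CTRL libraries. The log2 fold change was -3.03 (SE 0.732, adjusted p = 0.00124) by the quasi-likelihood test of edgeR with Benjamini-Hochberg adjustment. Pooled reads, 26 in CTRL and 5 in KCl 45min, gave a rate 8.99 times as high in CTRL (exact 95% counting interval 3.397 to 29.98). This was 1 call among the 3 genes tested, beside 95 of 378 transcripts called (25.1%), 79 lower (20.9%) and 16 higher, or 50 and 25 with TMM scaling. ACADM gave 0.06 (SE 0.508, adjusted p = 0.952) and TAF1D -1.17 (SE 0.546, adjusted p = 0.119) with overlapping groups. WDR43, NOP56, NOP58 and RABGGTB had 15, 16, 16 and 19 reads and were not tested, and for RABGGTB the rate in CTRL was 6.48 times that in KCl 45min (2.07 to 26.8), or 2.89 times without CTRL replicate 3, which held 10 of the 15 CTRL reads. The median over all tested transcripts was -0.39, and 0.06 after TMM scaling, and NCL lay at -2.64 relative to it. NCL had 31 reads, and leaving out any library other than KCl 45min replicate 2, which held none of them, took it under the minimum. DESeq2 gave NCL -2.69 (adjusted p = 0.0579). The count of all called transcripts was 51 without CTRL replicate 1, 45 without CTRL replicate 2 and 41 without KCl 45min replicate 3.

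JTE-607 and KCl share CTRL and were therefore also compared with each other, a test added after the data were seen. NOP56 was higher after JTE-607 (34.1 ± 2.17 against 4.19 ± 5.01 RPM), as were NCL (17.0 ± 12.3 against 2.57 ± 2.45) and RABGGTB (25.4 ± 12.6 against 2.51 ± 0.649), each in all 3 libraries. The log2 fold changes were 3.00 (SE 0.767, adjusted p = 7.62e-04) for NOP56, 2.503 (SE 0.844, adjusted p = 0.0125) for NCL and 3.397 (SE 0.805, adjusted p = 2.94e-04) for RABGGTB by the quasi-likelihood test of edgeR with Benjamini-Hochberg adjustment. NOP56, NCL and RABGGTB had 74, 33 and 59 reads in JTE 1h and 7, 5 and 4 in KCl 45min. They passed the minimum of reads only through JTE 1h, so no change is read from the calls alone. Of the 6 genes 5 were tested and 2 were called, both higher, beside 353 of 999 transcripts called (35.3%), 341 higher (34.1%) and 12 lower, or 114 and 50 with TMM scaling, where NCL (1.404) was not called. With the replicate number as a block, TAF1D at 1.44 (adjusted p = 0.0349) and WDR43 at 1.98 (adjusted p = 0.0484) were called as well, as they were in the fit of all 18 libraries (1.53 and 1.94). Since the KCl 45min libraries held at most 3 reads each, the ratio of pooled reads was 5.54 for NCL (exact 95% counting interval 2.15 to 18.2) and 12.4 for RABGGTB (4.59 to 46.9). ACADM, whose count begins upstream in the same gene, gave -0.25 (SE 0.507, adjusted p = 0.733) with overlapping groups. The median over all transcripts was 1.21, and 0.18 after TMM scaling. Relative to that median NOP56 lay at 1.79, NCL at 1.29, RABGGTB at 2.19 and ACADM at -1.46.

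NOP56 was called whichever of the 6 libraries was left out, and RABGGTB was called unless JTE 1h replicate 3 was left out, which took it under 30 reads. The size of the NOP56 difference was less stable, at 2.05 to 3.95 over all alternatives. Its ratio of pooled reads was 8.87, and 15.9 without KCl 45min replicate 1. NCL was not called without KCl 45min replicate 2 (2.18) or 3 (2.53), and fell under 30 reads without JTE 1h replicate 2 or 3. TAF1D was called without KCl 45min replicate 2 (1.97) or JTE 1h replicate 1 (1.90), and WDR43 without JTE 1h replicate 1 (2.37). DESeq2 called none of these, with NOP56 at 2.21 (adjusted p = 0.0930), NCL at 1.67 (adjusted p = 0.386) and RABGGTB at 2.52 (adjusted p = 0.114), and called 67 transcripts in all. All called transcripts numbered 182 without KCl 45min replicate 3, 176 without JTE 1h replicate 2 and 83 without JTE 1h replicate 3.

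The 2 untreated groups were compared to show how the genes differ between the library sets without treatment. TAF1D was higher in CTRLim (119 ± 23.4 RPM) than in CTRL (32.8 ± 12.01), in all 3 libraries, with a log2 fold change of 1.89 (SE 0.366, adjusted p = 0.00341) by the quasi-likelihood test of edgeR with Benjamini-Hochberg adjustment. This was 1 call among the 3 genes tested, beside 50 of 472 transcripts called (10.6%), 48 higher (10.2%) and 2 lower, or 23 and 24 with TMM scaling. ACADM gave 0.85 (SE 0.366, adjusted p = 0.126) and NCL -1.22 (SE 0.557, adjusted p = 0.152), and both were called when 1 CTRL library was left out, ACADM without replicate 2 at 1.21 and NCL without replicate 3 at -1.50. The median was 0.31, and -0.07 after TMM scaling, and TAF1D lay at 1.58 relative to it. Without CTRL replicate 1 or 3 the count of all called transcripts was 26 or 81, and without CTRLim replicate 1, 2 or 3 it was 25, 18 or 21.

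**Figure D3:**
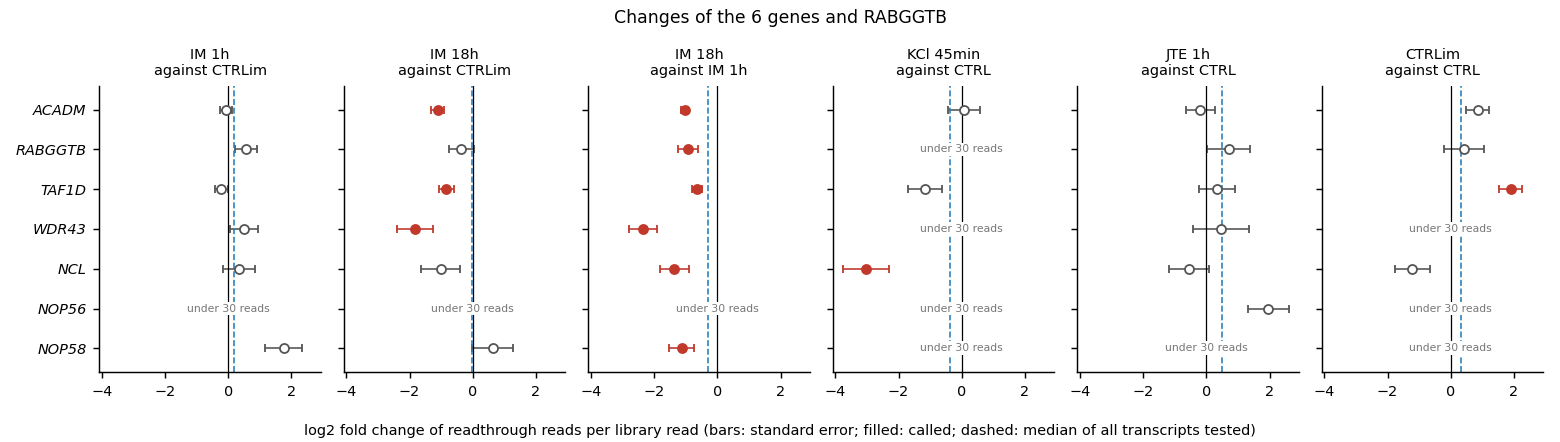
Log2 fold changes (horizontal axes) of the 6 genes and RABGGTB in 6 comparisons, with standard errors, the median of all transcripts tested as a dashed line and filled red points for called genes. In IM 18h against IM 1h the 5 tested genes and RABGGTB are called lower, and genes with fewer than 30 reads have no point.

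The plot of fold changes sets each gene beside the median of all transcripts: under imatinib for 18 h against 1 h every drawn point is left of the dashed line.

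The other genes of ribosome production were taken from lists of named genes. Few passed the minimum of reads, so the counts below describe the tested genes and not whole lists, and nothing in them is called particular to a list. Between the imatinib times, where 14.1% of all 1720 transcripts were called lower, 2 of 3 tested snoRNP assembly factors were lower: treacle (TCOF1) fell from 14.4 ± 2.81 to 3.00 ± 0.894 RPM, a log2 change of -2.20 (adjusted p = 4.26e-04), and NOLC1, a chaperone of snoRNPs, was at -1.48 (adjusted p = 0.00766). Of 11 tested genes of the small subunit processome 3 were lower, WDR43 and also BYSL at -1.57 (adjusted p = 0.00285) and UTP18 at -1.38 (adjusted p = 0.0145), with a median of -1.12 beside -0.30 over all transcripts. Of 6 tested large subunit factors 3 were lower, with a median of -0.74, namely the helicase DDX18 at -1.29 (adjusted p = 0.00285), nucleostemin (GNL3) at -1.09 (adjusted p = 0.00736) and GNL2 at -1.39 (adjusted p = 0.0359). Of 4 tested polymerase I genes TAF1D and the subunit gene POLR1H were lower, POLR1H at -1.12 (adjusted p = 0.0141). Of 7 other nucleolar proteins nucleophosmin (NPM1) fell from 14.8 ± 2.61 to 3.59 ± 0.742 RPM, at -2.01 (adjusted p = 8.25e-04), beside NCL. The genes named so far are those called by the quasi-likelihood test of edgeR with Benjamini-Hochberg adjustment. In each, all 3 IM 18h libraries lay below the IM 1h libraries, which that test does not measure. Since they were named for their calls, this shared direction is no further support. These counts are on the scale of library reads. With TMM scaling 5.35% of all transcripts were called lower, and TAF1D, NCL and NOP58 lost their calls while WDR43 was still called. Of the 4 box C/D core genes 3 were in the table, and NOP58 was the 1 tested here. The box H/ACA snoRNP had 2 of 6 genes tested and 0 called by edgeR, where 523 of all transcripts had an unadjusted p under 0.05 and DESeq2 called 63. Its genes with the most reads, NHP2 and the pseudouridine synthase gene DKC1, read 9.86 ± 3.11 and 7.87 ± 2.224 RPM in IM 1h and 4.25 ± 1.94 and 5.62 ± 2.08 in IM 18h.

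Against CTRLim, genes called lower after 18 h of imatinib by the quasi-likelihood test of edgeR were NOLC1 at -1.47 (adjusted p = 0.0289), DDX18 at -1.54 (adjusted p = 0.00256) and GNL2 at -1.58 (adjusted p = 0.0485), besides TAF1D and WDR43. These genes, again named for their calls, were lower in all 3 libraries. These were 1 of 1 snoRNP assembly factor tested, 2 of 5 large subunit factors, 1 of 4 polymerase I genes and 1 of 8 processome genes, with 0 of 4 other nucleolar genes and NOP58 as the box C/D core gene not called, beside 124 of all 1386 transcripts called lower (8.95%). With 1 h of imatinib, and with JTE-607 against CTRL, 0 genes of these lists were called by edgeR, and the counts of all transcripts at an unadjusted p under 0.05 and by DESeq2 stand with those comparisons above. Under KCl 1 polymerase I gene, 1 processome gene, 3 large subunit factors and 2 other nucleolar genes were tested, and NCL was the 1 called, beside 95 of all 378 transcripts (25.1%). Between JTE-607 and KCl the called list genes were higher after JTE-607, 5 of 10 tested in the processome list, 3 of 10 large subunit factors, 2 of 4 polymerase I genes, 2 of 4 other nucleolar genes, NOP56 as the 1 box C/D core gene tested, and 0 of 2 box H/ACA genes and 0 of 2 snoRNP assembly factors, beside 341 of all 999 transcripts (34.1%). These counts are from the fit without the replicate block, with which TAF1D and WDR43 were called as well. The polymerase I transcription factor UBTF went from 2.89 ± 2.56 to 31.9 ± 20.3 RPM and the helicase DHX9 from 3.88 ± 2.17 to 24.8 ± 10.3 RPM. The called genes include NOP14 of the processome list and MAK16 of the large subunit list. Both had 0 reads in the 3 KCl 45min libraries and reached the minimum of reads only through JTE 1h. No change is therefore read from these calls.

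Host genes as a class were taken from the annotation. Between IM 1h and IM 18h, 30 of the 55 host transcripts tested were called lower (54.5%) and 0 higher, beside 243 of all 1720 transcripts called lower (14.1%), with a median log2 fold change of -0.91 beside -0.30. RPL32, a ribosomal protein gene, fell from 93.5 ± 3.50 to 29.4 ± 2.75 RPM, at -1.65 (adjusted p = 2.69e-11), in all 3 libraries. By the quasi-likelihood test of edgeR the receptor and ribosomal protein gene RPSA was at -1.04 (adjusted p = 6.94e-07) and the translation factor gene EIF4A2, which hosts 5 snoRNAs, at -0.77 (adjusted p = 3.92e-07). Each was lower in all 3 libraries. Split by what they encode, a division made after the values were seen, 12 of 15 tested hosts that encode ribosomal proteins were lower (median -1.08) and 18 of 40 others (median -0.86). Ribosomal protein genes with no snoRNA had 16 of 29 lower (median -0.95). Without the 6 genes and RABGGTB, 12 of 34 other hosts were lower (median -0.78). With TMM scaling 15 of the 55 hosts were called lower (27.3%, beside 5.35% of all transcripts) and the hosts' median was -0.62 beside -0.01. Total readthrough reads as library size gave 18 lower hosts (32.7% beside 6.57%), the IM 1h libraries summed 16 (29.1% beside 6.45%), the fit of all 18 libraries 9 (16.4%, beside 4.24% of all transcripts) and DESeq2 4 (7.27% beside 1.22%).

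**Figure D4:**
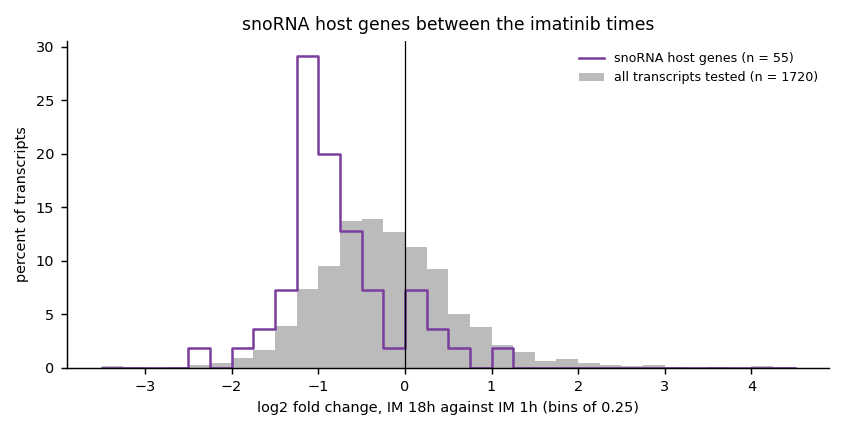
Percent of transcripts (vertical axis) by log2 fold change of IM 18h against IM 1h in bins of 0.25, for 55 snoRNA host transcripts (line) and all 1720 transcripts tested (grey bars). The host transcripts peak near a log2 fold change of -1, to the left of the peak of all transcripts.

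The histogram of host changes shows the shift of the host median on the scale of library reads, and the part of transcript level or read number in it was not tested. Against CTRLim, 18 h of imatinib gave 17 of 50 hosts lower (34.0%) and 0 higher, beside 8.95% of all transcripts called lower, with a median of -0.72 beside -0.01. By the quasi-likelihood test of edgeR RPL32 was at -1.37 (adjusted p = 2.81e-04), the chaperone gene HSPA8 at -1.01 (adjusted p = 0.00145), RPL13A at -1.08 (adjusted p = 0.00243) and RPSA at -1.01 (adjusted p = 0.00284). All were lower in 3 of 3 libraries. Without CTRLim replicate 2 the count of lower hosts was 8, and without CTRLim replicate 3 it was 10. DESeq2 called 3 hosts lower (beside 3.17% of all transcripts) and the fit of all 18 libraries 6 (beside 4.83% of all transcripts). Summing CTRLim replicates 2 and 3 gave 12 lower hosts (beside 7.0% of all transcripts). With CTRL as control 10 hosts were lower (beside 5.86% of all transcripts) and 2 higher. Against all 6 untreated libraries 7 of 57 hosts were lower (beside 3.66% of all transcripts) and 1 higher.

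Under KCl 7 of 29 hosts were lower (24.1%), beside 79 of all 378 transcripts (20.9%), and 1, TMEM107, was higher, with a median of -0.64 beside -0.39. Besides NCL, the called hosts included ODC1 at -2.21 (adjusted p = 0.00247), TBRG4 at -2.20 (adjusted p = 0.00517) and RACK1 at -2.12 (adjusted p = 0.00892), each lower in all 3 libraries. The lower hosts numbered 3 without CTRL replicate 1 and 2 without KCl 45min replicate 3. DESeq2 called 0 lower, beside 8.47% of all transcripts. The counts were 3 of 29 (10.3%) with total readthrough reads as library size, beside 11.6% of all transcripts, 4 of 19 (21.1% beside 19.9%) with a minimum of 60 reads and 19 of 50 (38.0% beside 31.6%) against all 6 untreated libraries. TMEM107 was not called without CTRL replicate 1 or 3 or KCl 45min replicate 2. JTE-607 against CTRL and 1 h of imatinib gave 0 of 56 and 0 of 49 hosts called by edgeR, where 108 and 131 of all transcripts had an unadjusted p under 0.05 and DESeq2 called 1 and 8. In JTE 1h against KCl 45min, without the replicate block, 24 of 61 hosts were higher and 2 lower, beside 341 (34.1%) and 12 of all 999 transcripts. In CTRLim against CTRL 3 of 39 hosts were higher and 0 lower, beside 48 (10.2%) and 2 of all 472 transcripts.

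The transcripts whose pattern was most like each gene were found by Pearson correlation of log2 readthrough reads per library read over the 18 libraries, among about 319 transcripts with at least 200 reads. The libraries form 2 sets by mapped share, so the pooled values are descriptions with no p, and the values within each set of 9 are given. ACADM was most like the histone genes H4C12 (r = 0.909, 0.920 in the CTRL set and 0.966 in the CTRLim set) and H2AC12 (0.900, 0.780 and 0.979) and the host gene HSPA8 (0.858, 0.659 and 0.951). Among the transcripts most like TAF1D were PNRC2 (0.952, 0.922 and 0.437) and the histone gene H2BC7 (0.910, 0.837 and 0.341). Among those most like WDR43 were DDX18 (0.902, 0.962 and 0.752) and RPSA (0.790, 0.743 and 0.896). NCL was most like SF1 (0.858, 0.889 and 0.903), TMEM138 (0.827, 0.947 and 0.744) and an unmatched transcript (0.807, 0.968 and 0.529). For NOP56 these were RPS19 (0.760, 0.938 and 0.0673), MRPS18A (0.743, 0.748 and 0.545) and SF1 (0.702, 0.888 and 0.463). For NOP58 they were HNRNPH1 (0.768, 0.924 and 0.705), TMEM214 (0.691, 0.771 and 0.672) and RPS25 (0.667, 0.817 and 0.741).

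Among the genes themselves, ACADM and RABGGTB, which overlap, had r = 0.334 over the 18 libraries, -0.03 in the CTRL set and 0.675 in the CTRLim set. TAF1D and WDR43 had 0.705, with 0.806 and 0.793 within the sets. NOP56 and NOP58, partners in the same particle, had 0.06, with 0.293 and -0.0978. With so few reads per library for the sparser genes, a weak value here is no finding.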

How the data were processed

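Per the labels and the study's methods, the authors trimmed adapters with cutadapt, aligned reads to GRCh38.p14 with minimap2, collapsed duplicates by molecular identifier, dropped polyadenylated and multiply mapped reads, and deposited raw counts of readthrough reads for 1 transcript per gene, without normalization or pooling. All 18 libraries were used, 3 in each of 6 groups. Library sizes are the reads left after the study's filters, as its mapping table gives them. Positions, names, snoRNA genes and sequences come from GENCODE 44 on the same build, with 347 transcripts unmatched.

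Counts were tested over all transcripts with at least 30 reads in the 6 libraries of a comparison, with edgeR 4.0.16 in R 4.3.3 (quasi-likelihood fit, Benjamini-Hochberg adjustment) and called at an adjusted p under 0.05. The standard error is the log2 fold change divided by the square root of F. DESeq2 1.42.0 was an alternative. Alternatives also changed the scaling, the minimum, the control and the libraries in the fit, added a replicate block and dropped the libraries singly. Tables were made in Python 3.11.15 with numpy 2.4.6 and pandas 2.3.3, intervals with scipy 1.17.1 and figures with matplotlib 3.10.9. Correlations used a pseudocount of 0.5 reads.

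The genes and the lists were chosen with earlier results of these data known. Named besides the 6 genes and RABGGTB are up to 3 of the most correlated transcripts of each, and from each list the called transcripts, up to 5 per comparison by adjusted p, or otherwise the 2 with the most reads. TMEM107 and the split of hosts by ribosomal protein genes were chosen after the values were seen. CTRLim replicates 2 and 3, and the 3 IM 1h replicates, differed from each other by no more than sampling noise (for CTRLim, chi-square per degree of freedom 1.029). They were kept apart because the labels call them separate biological replicates, and whether they are separate cultures was not determined here. In JTE 1h against KCl 45min libraries with the same replicate number deviated together (r of 0.370, 0.319 and 0.257 for numbers 1, 2 and 3), so the numbers pair these libraries by the data and not by the labels. This was checked after the calls were seen, and the fit without the block was kept.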

Additional observations from a re-analysis of the deposited data

Results flagged for a closer look

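Readthrough of 5 of the 6 genes and of RABGGTB was called lower at the later imatinib time, by a test of the difference itself (IM 18h against IM 1h, quasi-likelihood test of edgeR with Benjamini-Hochberg adjustment). The log2 difference was -1.03 for ACADM, -0.64 for TAF1D, -2.35 for WDR43, -1.36 for NCL, -1.12 for NOP58 and -0.91 for RABGGTB, and in each gene all 3 libraries at 18 h were below all 3 at 1 h. Readthrough reads of all transcripts separated in the same way, at 3.68% to 3.74% of library reads in IM 18h and 4.37% to 4.40% in IM 1h. The share of all transcripts that separate so was not counted. Of all 1720 transcripts tested 243 were called lower (14.1%), or 5.35% with TMM scaling. Since the genes were chosen with earlier results of these data known, their number of calls is not a test against that share. The median over all tested was -0.30, relative to which the genes lay at -0.73, -0.34, -2.05, -1.06, -0.82 and -0.61. Not all of these calls hold under other settings: TMM scaling, total readthrough reads as library size, DESeq2 and the IM 1h libraries summed as 1 each called ACADM and WDR43 only, and the fit of all 18 libraries WDR43 only. Over all alternatives with a value the call was lost in 0 of 14 for WDR43, 1 of 15 for ACADM, 5 of 15 for TAF1D, 12 of 14 for NCL and 11 of 15 each for NOP58 and RABGGTB.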

How the results depend on the processing

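Depth limits the results, as do the choices of scaling, fit and control. Of the 6 genes, NOP56, NOP58, NCL and WDR43 had few reads per library, and a gene under the minimum in an alternative has no value there. The 2 library sets cannot be told apart from the treatments they hold. In the comparisons other than JTE 1h against KCl 45min the replicate numbers were not taken to pair libraries, since in none of them was every r of libraries with the same number over 0.1. Among these the values were highest in JTE 1h against CTRL (0.336, 0.0235 and 0.321) and KCl 45min against CTRL (0.322, 0.0664 and 0.150), where replicates 1 and 3 but not 2 matched their own number best. In IM 18h against IM 1h they were 0.0649, 0.0522 and 0.0595, and all 3 matched their own number best. With the replicate block 4 of the 6 genes and 274 transcripts were called in IM 18h against IM 1h, and 3 and 195 in IM 18h against CTRLim. Of the log2 fold changes of single genes under the alternatives, 433 kept direction and side of the threshold, 60 lost the call, 15 gained it and 25 turned direction. ACADM and WDR43 in IM 18h against IM 1h were lower under every alternative that gave a value, over -1.07 to -0.72 and -2.59 to -2.06, and ACADM missed the call in the fit of all 18 libraries (adjusted p = 0.08002, in a range from 2.39e-17). TAF1D in CTRLim against CTRL was called under each alternative (1.51 to 2.08). NOP56 in JTE 1h against CTRL ran from 1.54 to 2.4996. Elsewhere the values below moved, and the cause was not tested.

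With TMM scaling of the readthrough counts, the number of the 6 genes called was 2 in IM 18h against IM 1h and 1 in JTE 1h against KCl 45min, and all called transcripts numbered 203 in IM 18h against IM 1h, 0 in JTE 1h against CTRL and 164 in JTE 1h against KCl 45min. There the direction turned for TAF1D at -0.18 in JTE 1h against CTRL. With total readthrough reads as library size, the number of the 6 genes called was 2 in IM 18h against IM 1h and 1 in JTE 1h against KCl 45min, and all called transcripts numbered 0 in JTE 1h against CTRL, 31 in CTRLim against CTRL and 184 in JTE 1h against KCl 45min. There the direction turned for TAF1D at -0.14 in JTE 1h against CTRL. With mapped reads as library size, the number of the 6 genes called was 3 in IM 18h against IM 1h. With no minimum of reads, the number of the 6 genes called was 3 in IM 18h against IM 1h and 1 in JTE 1h against KCl 45min, and all called transcripts numbered 9 in IM 1h against CTRLim and 0 in JTE 1h against CTRL. With a minimum of 60 reads, the number of the 6 genes called was 3 in IM 18h against IM 1h, 0 in KCl 45min against CTRL and 1 in JTE 1h against KCl 45min, and all called transcripts numbered 0 in JTE 1h against CTRL, 36 in KCl 45min against CTRL, 29 in CTRLim against CTRL and 135 in JTE 1h against KCl 45min. With DESeq2 and its own size factors, the number of the 6 genes called was 1 in IM 18h against CTRLim, 2 in IM 18h against IM 1h, 0 in KCl 45min against CTRL and 0 in JTE 1h against KCl 45min, and all called transcripts numbered 8 in IM 1h against CTRLim, 79 in IM 18h against CTRLim, 63 in IM 18h against IM 1h, 47 in KCl 45min against CTRL, 20 in CTRLim against CTRL and 67 in JTE 1h against KCl 45min. There the direction turned for TAF1D at -0.15 in JTE 1h against CTRL, WDR43 at -0.21 in JTE 1h against CTRL and RABGGTB at -0.0004 in CTRLim against CTRL. With all 18 libraries in 1 fit, the number of the 6 genes called was 1 in IM 18h against CTRLim, 1 in IM 18h against IM 1h, 1 in JTE 1h against CTRL, which was NOP56, and 4 in JTE 1h against KCl 45min, and all called transcripts numbered 5 in IM 1h against CTRLim, 113 in IM 18h against CTRLim, 112 in IM 18h against IM 1h and 30 in JTE 1h against CTRL. With the replicate number as a replicate block, the number of the 6 genes called was 4 in JTE 1h against KCl 45min, TAF1D and WDR43 besides NCL and NOP56, and all called transcripts numbered 4 in JTE 1h against CTRL. NCL lost its call in IM 18h against IM 1h (adjusted p = 0.0577), and no other call of these genes changed. With CTRL in place of CTRLim, NCL was also called in IM 18h against CTRLim, at -2.27, the number of the 6 genes called was 2 in IM 1h against CTRLim, and all called transcripts numbered 202 in IM 1h against CTRLim. There the direction turned for ACADM at 0.76 in IM 1h against CTRLim, TAF1D at 1.71 in IM 1h against CTRLim, NCL at -0.92 in IM 1h against CTRLim, TAF1D at 1.07 in IM 18h against CTRLim, NOP58 at -0.21 in IM 18h against CTRLim and RABGGTB at 0.0568 in IM 18h against CTRLim. With all 6 untreated libraries as control, the number of the 6 genes called was 1 in IM 18h against CTRLim, which was NCL, 1 in JTE 1h against CTRL, which was NOP56, and 2 in KCl 45min against CTRL, and all called transcripts numbered 2 in IM 1h against CTRLim, 23 in JTE 1h against CTRL and 274 in KCl 45min against CTRL. There the direction turned for ACADM at 0.28 in IM 1h against CTRLim, TAF1D at 0.45 in IM 1h against CTRLim, NCL at -0.40 in IM 1h against CTRLim, TAF1D at -0.89 in JTE 1h against CTRL and ACADM at -0.43 in KCl 45min against CTRL. With CTRLim replicates 2 and 3 summed as 1 library, an alternative chosen after seeing the data, all called transcripts numbered 21 in CTRLim against CTRL, and TAF1D lost its call in IM 18h against CTRLim, at -0.79 (adjusted p = 0.0502). With the IM 1h replicates summed as 1 library, also chosen after seeing the data, the number of the 6 genes called was 2 in IM 18h against IM 1h, and all called transcripts numbered 6 in IM 1h against CTRLim and 155 in IM 18h against IM 1h.

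Leaving out each library in turn moved the number of the 6 genes called over 1 to 2 in IM 18h against CTRLim, 3 to 4 in IM 18h against IM 1h, 0 to 1 in JTE 1h against CTRL, 0 to 1 in KCl 45min against CTRL, 1 to 2 in CTRLim against CTRL and 1 to 4 in JTE 1h against KCl 45min. All called transcripts then ran from 8 to 22 in IM 1h against CTRLim, 116 to 189 in IM 18h against CTRLim, 174 to 273 in IM 18h against IM 1h, 0 to 69 in JTE 1h against CTRL, 41 to 75 in KCl 45min against CTRL, 18 to 81 in CTRLim against CTRL and 83 to 476 in JTE 1h against KCl 45min. Log2 fold changes that turned direction ran from -0.15 to 0.0039 for ACADM in IM 1h against CTRLim, -0.54 to 0.16 for ACADM in JTE 1h against CTRL, -0.26 to 0.72 for TAF1D in JTE 1h against CTRL, -0.15 to 1.25 for WDR43 in JTE 1h against CTRL and -0.15 to 0.41 for ACADM in KCl 45min against CTRL.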

Other observations

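ACADM made up most of the readthrough reads of the 6 genes in every library, from 54.8% in JTE 1h replicate 3 to 93.5% in KCl 45min replicate 1. The other 5 genes together read 80.4, 85.3 and 85.1 RPM in CTRL, 21.9, 38.2 and 27.5 in KCl 45min and 58.8, 163 and 118 in JTE 1h. They read 131, 181 and 148 in CTRLim, 157, 159 and 168 in IM 1h and 94.7, 90.03 and 80.03 in IM 18h. The KCl 45min libraries were thus below every other library, and the IM 18h libraries below those of CTRLim and IM 1h. Readthrough reads of all transcripts lay in the same order, so nothing particular to these genes is read from it. They were 2.15% to 2.68% of library reads in KCl 45min, and the lowest value elsewhere was 3.06%, in JTE 1h replicate 1. They were 3.68% to 3.74% in IM 18h, 3.79% to 4.44% in CTRLim and 4.37% to 4.40% in IM 1h.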
